A study of Arabidopsis thaliana with 6 samples.

Results

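The NET (Networked) genes of Arabidopsis thaliana encode plant proteins that bind actin filaments and tie them to membranes. They were measured in whole rosettes of 2 genotypes, wild type Col-0 and the mutant pmr5, which resists powdery mildew and is mutated in a gene of the TBL family, known for acetylating cell wall polysaccharides. The members are the genes whose symbol is NET with a number and a letter, taken from probe sets paired with exactly 1 gene. Of the 13350 genes with such a probe set, 10 were NET genes, each with 1 probe set, so that no choice between probe sets arose. The reference gene table holds 13 NET genes, and NET2A, NET2B and NET4A were not analysed here.

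There were 3 arrays of Col-0 and 3 of pmr5, the mutant being in the Col-0 background. All plants were untreated, were grown at 22 °C under 14 h of light, and were harvested at 3 weeks. The labels call the arrays of a genotype biological replicates without saying whether the plants came from separate sowings, so the p-values measure the spread between these arrays only. The labels name no pmr5 allele. PMR5 itself was not analysed here, as no probe set carried its name, so the mutated gene could not be used to check the genotype labels.

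Every NET protein carries an N-terminal NAB domain, which binds filamentous actin and is related to petunia KIP1, followed by coiled coils. The superfamily has 4 groups, NET1 to NET4, that decorate different membranes. NET1A was described at the plasma membrane and at plasmodesmata, mainly in roots. NET2A acts at the plasma membrane of pollen tubes, together with pollen receptor kinases. NET3B and NET3C sit on the endoplasmic reticulum, NET3C at its contact sites with the plasma membrane beside VAP27. NET4 proteins label the tonoplast, where NET4A and NET4B work with RABG3 GTPases in guard cells.

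Values are log2 signals, and a step of 1 is a 2-fold difference within a probe set. Signals of different probe sets depend on their probes, so they do not order the genes by transcript abundance. A shared lowest log2 signal of 2.19, here called the floor, filled 25.0% to 26.3% of the tested probe sets on each array, and values at it have no order. Array medians lay between 4.68 and 4.78, and the correlation of 2 arrays over all probe sets was 0.980 to 0.995 within a genotype and 0.981 to 0.993 between genotypes. Col-0 replicate 1 stood apart, with a score of 52.3 on the first principal component (37.5% of the variance) against -30.5 to 12.2 for the other 5 arrays. The leaf markers LHCB4.1 and LHCB4.2, for light-harvesting proteins, had log2 signals between 14.25 and 14.90 on all arrays. The root hair expansin markers EXPA7 and EXPA18 never left the floor, while the third measured root marker, PYK10, ranged from 3.28 to 5.86, and the sperm histone gene MGH3 was just off the floor on 5 arrays, also at 2.19 when rounded, and at 2.78 on Col-0 replicate 1.

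Rosettes gave a clear signal for members of 2 of the 4 NET groups. NET1B, NET1D and NET4B had a mean log2 signal above 6, with array values from 6.67 to 8.51. A further 4 members, NET1A, NET1C, NET2D and NET3A, stayed between 2.23 and 3.66, on every array above the floor but within 1.5 log2 units of it. The last 3, NET2C, NET3B and NET3C, sat at the floor throughout. By group, a mean above 6 was found for 2 of 4 NET1 genes, 0 of 2 NET2 genes, 0 of 3 NET3 genes and 1 of 1 NET4 gene. Over all tested probe sets 39.0% had a mean above 6, 71.2% were always above the floor and 16.5% always at it. A value at the floor does not show that a transcript is absent, and for these 3 members no difference between genotypes can be read.

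**Figure D1:**
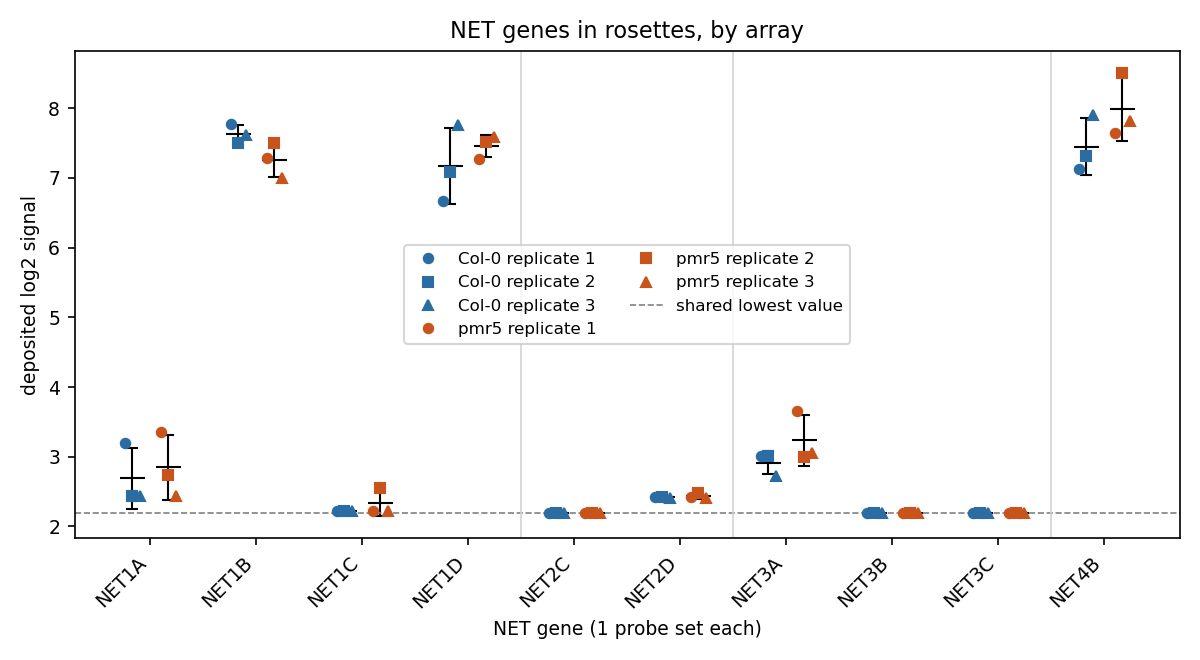
Deposited log2 signal (vertical axis) of the 10 NET genes (horizontal axis, grey lines between NET groups) on each of 3 Col-0 arrays (blue) and 3 pmr5 arrays (orange), with the mean and SD of each genotype as black bars and the floor as a dashed line. NET1B, NET1D and NET4B lie between 6.67 and 8.51, and the other 7 genes lie at or below 3.66.

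The NET1 group, whose member NET1A marks the plasma membrane, held both bright and dim probe sets. NET1B (AT4G14760) had log2 signals of 7.77, 7.50 and 7.61 in Col-0 replicates 1 to 3, and of 7.28, 7.50 and 7.00 in pmr5 replicates 1 to 3. The lowest Col-0 value and the highest pmr5 value, both from replicate 2, were identical, so the genotypes touched without crossing. The means were 7.63 ± 0.14 (SD, n = 3) for Col-0 and 7.26 ± 0.25 (SD, n = 3) for pmr5, a log2 difference of -0.37 (SE 0.16, 95% interval -0.79 to 0.05, limma adjusted p = 1). Of the 7 NET genes off the floor, NET1B was the only one with a lower mean in pmr5, by 1.29-fold, and its interval includes 0. With quantile normalization, or with arrays centred on their medians, the tie broke and every pmr5 array lay below every Col-0 array. The difference of NET1B was -0.24 when pmr5 replicate 3 was left out and -0.49 when pmr5 replicate 2 was.

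NET1D (AT1G03080) had log2 signals of 6.67, 7.08 and 7.76 in Col-0 and of 7.27, 7.51 and 7.58 in pmr5. The Col-0 arrays held both its lowest and its highest value, and all pmr5 values fell between them. Its means were 7.17 ± 0.55 (SD, n = 3) for Col-0 and 7.45 ± 0.16 (SD, n = 3) for pmr5, a log2 difference of 0.28 (SE 0.31, 95% interval -0.56 to 1.13, limma adjusted p = 1). Without Col-0 replicate 1, the array that stood apart, the difference was 0.03, and without Col-0 replicate 3 it was 0.58.

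The other NET1 genes were dim. NET1A (AT3G22790) had log2 signals of 3.19, 2.44 and 2.44 in Col-0 and of 3.36, 2.74 and 2.44 in pmr5. Its lowest value was the same on 3 arrays, and replicate 1 was the highest array of each genotype. NET1C (AT4G02710) was at 2.23 on 5 arrays and at 2.55 on pmr5 replicate 2. Such a lone high array was common: of 2486 probe sets with 1 identical lowest value on exactly 5 arrays, pmr5 replicate 2 was the high one in 18.0%. The log2 difference of NET1A was 0.16 (SE 0.35) and that of NET1C 0.11 (SE 0.10), with a limma adjusted p of 1 for both. The difference of NET1A was -0.10 without pmr5 replicate 1, and that of NET1C was 0 without pmr5 replicate 2.

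The NET2 group, best known from pollen, had 2 measured members, and neither had a signal far above the floor. NET2A, the member described in pollen tubes, and NET2B were not analysed here. NET2C (AT5G10500) read 2.19 on all 6 arrays. NET2D (AT2G22560) ranged only from 2.41 to 2.48, with its highest value on pmr5 replicate 2 and a log2 difference of 0.02 (SE 0.02, limma adjusted p = 1). The pollen marker MGH3 was near the floor as well, as given above, and it was the only 1 of 6 listed pollen markers measured.

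The NET3 group, with NET3B and NET3C of the endoplasmic reticulum, had 2 of 3 genes at the floor. NET3B (AT4G03153) and NET3C (AT2G47920) read 2.19 on every array of both genotypes. NET3A (AT1G03470) had log2 signals of 3.01, 3.01 and 2.72 in Col-0 and of 3.66, 2.99 and 3.05 in pmr5. Only pmr5 replicate 1 stood clear of the others, and the genotypes overlapped. The means were 2.91 ± 0.17 (SD, n = 3) for Col-0 and 3.23 ± 0.37 (SD, n = 3) for pmr5, a log2 difference of 0.32 (SE 0.22, 95% interval -0.27 to 0.92, limma adjusted p = 1). Without pmr5 replicate 1 the difference was 0.11. So close to the floor the size of a difference is uncertain, and how the floor affects it was not tested.

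NET4B (AT2G30500), the measured member of the tonoplast group, had log2 signals of 7.13, 7.32 and 7.90 in Col-0 and of 7.64, 8.51 and 7.81 in pmr5. The highest array was pmr5 replicate 2, and Col-0 replicate 3 lay above the other 2 pmr5 arrays. The means were 7.45 ± 0.40 (SD, n = 3) for Col-0 and 7.99 ± 0.46 (SD, n = 3) for pmr5, a log2 difference of 0.54 (SE 0.34, 95% interval -0.36 to 1.44, limma adjusted p = 1). This was 1.45-fold higher in pmr5, with an interval from 0.777-fold to 2.71-fold. Leaving out pmr5 replicate 2 gave 0.28, and leaving out Col-0 replicate 3 gave 0.76. The guard cell markers AT1G22690 and FMA were higher in every pmr5 array than in every Col-0 array, by 0.58 (SE 0.11) and 0.16 (SE 0.06) log2 units, with a limma adjusted p of 1 for both. Over all tested probe sets 2.41% were higher in pmr5 with no overlap, and 3.35% of those above the floor on every array, as both markers were. The marker lists were chosen with earlier results of these data known. Their separation is therefore no evidence about NET4B, whose genotypes overlapped. Only 2 of 5 listed guard cell markers were measured. The part of guard cells in the NET4B values was not tested. In whole rosettes a different number of cells of a type and a different amount of RNA per cell cannot be told apart.

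Across the superfamily, no NET gene passed the test between the genotypes. With limma, 0 of 10 members had an adjusted p under 0.05, against 0.0% of the 22746 probe sets tested, and 0 of 10 had an unadjusted p under 0.05, against 2.6%. In 0 of 10 members were the 3 pmr5 arrays all above or all below the 3 Col-0 arrays, against 4.66% of the tested probe sets (2.41% higher and 2.25% lower in pmr5). These counts of 10 include the 3 members always at the floor, which could not differ. For the unadjusted p, no share was taken among probe sets above the floor. Of the 7 members that stayed above the floor, 0 separated the genotypes, against 6.44% of probe sets that did so (3.35% higher and 3.09% lower in pmr5). By their means, 6 of the 7 were higher in pmr5 and 1 was lower. Their median log2 difference was 0.16, against 0 to 2 decimals over all probe sets that stayed above the floor. The 6 higher means share the same 6 arrays, and 3 of them (NET1A, NET1C and NET2D) belong to probe sets with a repeated lowest value, so they are not separate observations.

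**Figure D2:**
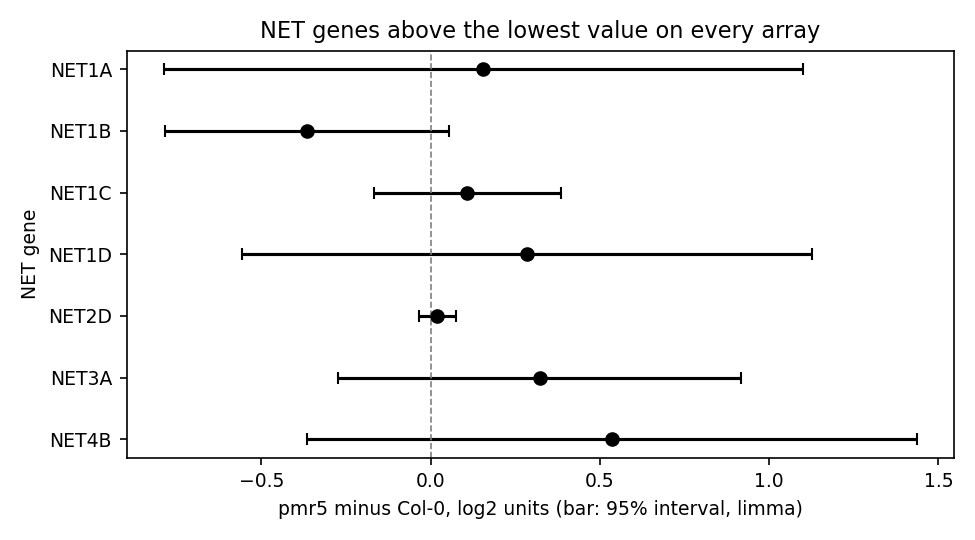
Difference in log2 signal between pmr5 and Col-0 (horizontal axis, points) with the 95% interval of the limma fit (bars) for the 7 NET genes (vertical axis) that stayed above the floor. All 7 intervals include 0, and the one for NET4B reaches from -0.36 to 1.44.

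How much the bright members varied between arrays of the same genotype differed from gene to gene. The residual SD within genotypes was 0.20 log2 units for NET1B, 0.40 for NET1D and 0.43 for NET4B. Among probe sets with a mean above 6, 40.2% had a smaller residual SD than NET1B, 78.2% a smaller one than NET1D and 80.8% a smaller one than NET4B. The span from the lowest to the highest array was 1.71-fold for NET1B, 2.13-fold for NET1D and 2.60-fold for NET4B.

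NET1D and NET4B had their lowest signal on Col-0 replicate 1, the array on which NET1B was highest. Over the 6 arrays, which hold both genotypes, Pearson's r was 0.77 between NET1D and NET4B, -0.47 between NET1B and NET1D and -0.26 between NET1B and NET4B. Without Col-0 replicate 1 these were 0.61, 0.003 and 0.15, so the negative values rest on that array. The signal of NET1D minus that of NET1B, compared only between arrays, was -1.10, -0.42 and 0.15 in Col-0 and -0.01, 0.004 and 0.58 in pmr5. Its genotype means, -0.46 ± 0.63 and 0.19 ± 0.33 (SD, n = 3), differed by 0.65 (exact permutation test, 2-sided, p = 0.3, with 0.1 the smallest possible). This is the difference of NET1D less that of NET1B, so it adds no separate observation. Its lowest value, -1.10, came from Col-0 replicate 1, and the contrast was not repeated without that array.

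**Figure D3:**
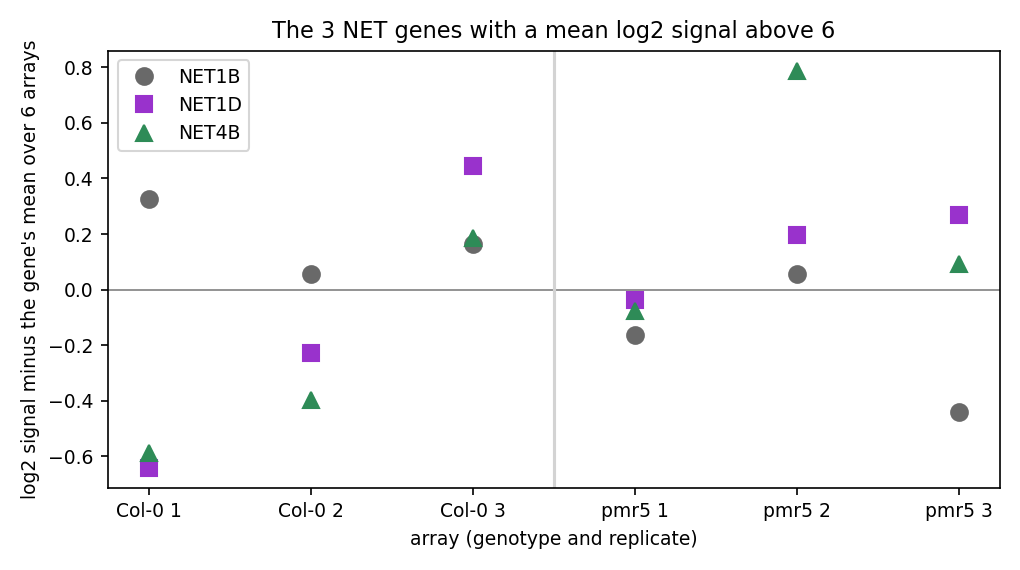
Log2 signal of NET1B, NET1D and NET4B on each array (horizontal axis, genotype and replicate) minus the gene's own mean over the 6 arrays (vertical axis). NET1D and NET4B are lowest on Col-0 replicate 1, where NET1B is highest, and NET4B is highest on pmr5 replicate 2.

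NET4B had both the highest mean and the widest spread of the members off the floor, so it was the member for which genes with a similar profile were sought. Among 5010 candidate probe sets with 1 gene, a signal always above the floor and an SD of at least 0.2, the closest over the 6 arrays were YLS5 (Pearson's r 0.986), AT3G01590 (0.970) and AT5G04750 (0.966). YLS5 read 7.35, 7.62 and 8.31 in Col-0 and 7.90, 8.67 and 8.08 in pmr5. It followed NET4B in having Col-0 replicate 1 as its lowest and pmr5 replicate 2 as its highest array. With 6 arrays and this many candidates high values can arise from the size of the search alone, and 12 candidates exceeded an r of 0.95 with NET4B. The search was run for no other profile.

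Few other genes of the actin cytoskeleton could be set beside the NET genes. Of 53 genes listed by locus in 9 lists (actins, profilins, actin depolymerizing factors, villins and fimbrins, formins and ARP2/3, myosins, VAP27, RABG3 and pollen receptor kinases), only ACT11 and ACT12 had a probe set paired with 1 gene. A further 10 genes were taken by their symbols from the array annotation, namely 2 SCAR/WAVE subunits, 3 LIM proteins and 5 class XI myosins. In limma 0 of these 12 genes passed an adjusted p under 0.05, their median log2 difference was 0.05, and 1 of 12 separated the genotypes, against 4.66% of all tested probe sets.

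Actin itself, the filament that NET proteins bind, was seen through ACT11, ACT12 and a control probe set of the array. ACT11, which is strongest in reproductive organs, had log2 signals of 8.37, 7.91 and 7.20 in Col-0 and of 7.28, 7.76 and 6.95 in pmr5, with overlap and a difference of -0.50 (SE 0.39). ACT12, a pollen actin, was at the floor on 5 arrays and at 2.20 on Col-0 replicate 2. The 3' actin control probe set had a mean of 11.05 ± 0.32 over the Col-0 arrays and 11.07 ± 0.23 over the pmr5 arrays (SD, n = 3). Its arrays ranged from 10.70 to 11.33.

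Class XI myosins are motors that move organelles along actin. Of the 5 taken by symbol, XI-I was well above the floor and the other 4 were at or near it. A further 3, listed by locus, had no probe set paired with 1 gene, so the class was seen only in part. XI-I, the myosin of the nuclear envelope, had log2 signals of 5.36, 5.44 and 5.56 in Col-0 and of 6.05, 5.68 and 6.01 in pmr5, with every pmr5 array above every Col-0 array. Its difference was 0.46 (SE 0.12, 95% interval 0.13 to 0.79, unadjusted p = 0.0173 and adjusted p = 1 in limma), so it did not pass the test over all probe sets. XIE was at the floor on 6 arrays and XIJ on 5. XIC read 2.30 on 5 arrays and 2.49 on pmr5 replicate 2, and XIH stayed between 2.66 and 3.17.

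The regulators and bundlers of filaments gave differences within their spread. BRK1 and PIR121, subunits of the SCAR/WAVE complex that activates ARP2/3, differed by -0.12 (SE 0.10) and 0.07 (SE 0.27). WLIM1, WLIM2a and WLIM2b, which bundle filaments, differed by 0.32 (SE 0.34), 0.18 (SE 0.60) and 0.03 (SE 0.08). The genotypes overlapped in all 5, and the limma adjusted p of each was 1. Tubulins, the subunits of microtubules, had 7 measured genes with a median difference of -0.01. In limma 0 of 7 passed, against 0.0% of all tested probe sets, and 0 of 7 separated the genotypes, against 4.66%.

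**Figure D4:**
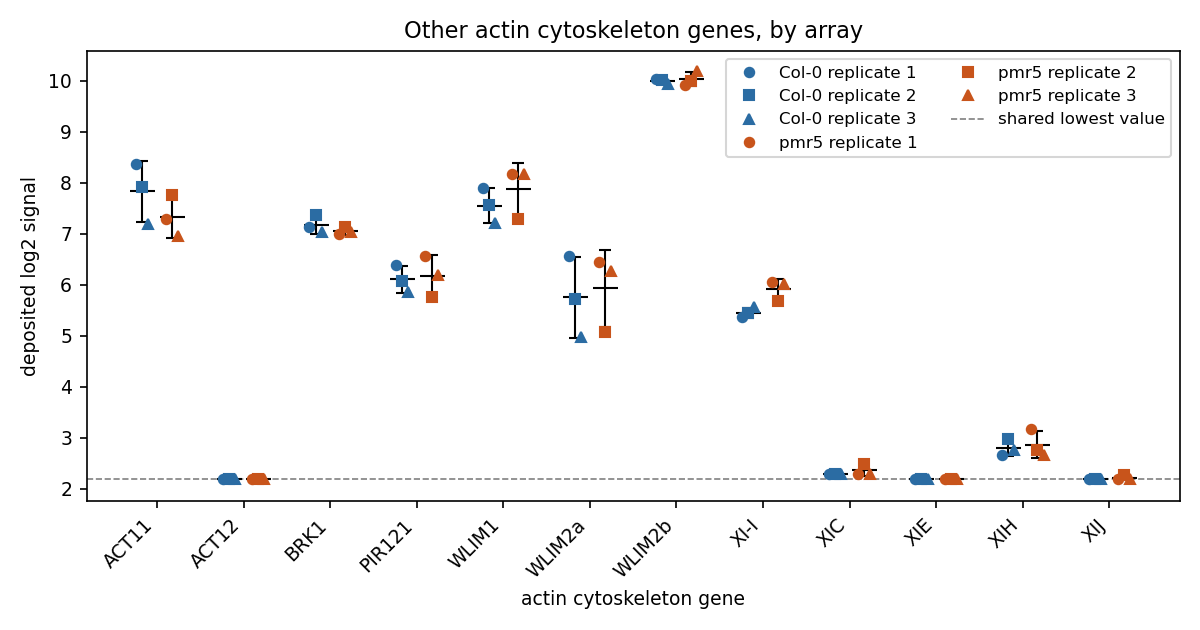
Deposited log2 signal (vertical axis) of 12 other actin cytoskeleton genes (horizontal axis) on the 3 Col-0 (blue) and 3 pmr5 (orange) arrays, with genotype means and SD as black bars and the floor as a dashed line. XI-I is the gene whose 3 pmr5 arrays (5.68 to 6.05) all lie above its 3 Col-0 arrays (5.36 to 5.56).

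In the order of protein-coding genes of the RefSeq assembly TAIR10.1, measured NET genes of different groups lay near each other on 2 chromosomes. On chromosome 1, 43 genes separated NET1D, which was bright, from NET3A, which was dim. On chromosome 4, 48 genes separated NET1C, close to the floor, from NET3B, at it. The other pairs of measured NET genes on 1 chromosome were 827 or more genes apart.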

How the data were processed

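RNA of whole rosettes was hybridized to 1-colour Affymetrix arrays. The values, deposited as log2 signals for each probe set, came from RMA in affy per the submitters' processing notes. Versions and the step that set the floor, the shared lowest value, are not given in the sources used here. Of 22810 probe sets, 64 Affymetrix controls were left out of the tests. The platform annotation paired 13513 of the others with 1 gene, 503 with several and 8730 with none, and all 10 NET genes matched the RefSeq table of TAIR10.1 by gene ID.

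The values were fitted as deposited in R 4.3.3 with limma 3.58.1 (lmFit, eBayes), as pmr5 minus Col-0, 2-sided, with Benjamini-Hochberg adjustment over 22746 probe sets and a threshold of 0.05. The prior had 0.41 degrees of freedom beside 4 residual ones. The fit was also run on simulated normal values modelled on probe sets above the floor on every array. That simulation does not cover probe sets at the floor or with identical values, which the fit of the real data includes. Values within 1e-06 were called identical. The number of arrays limits the precision.

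The rule named every NET gene, up to 3 genes per list by smallest p, and the 3 genes most like the NET gene with the highest mean and the one with the largest spread. The SCAR/WAVE, LIM, myosin and tubulin genes taken by symbol are all named or counted. Members and lists were chosen with earlier results of these data known. For 2 of the 7 cell type marker lists, vascular and flower, no gene was analysed here. The root marker PYK10 differed by 0.39 (SE 0.87) and the trichome marker TRY by 0.06 (SE 0.85). Alternatives were a replicate block, each array left out, filters on dim probe sets, quantile normalization, median centring, a trended robust prior and array weights. No protein or promoter sequences were used here.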

Additional observations from a re-analysis of the deposited data

How the results depend on the processing

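No NET gene passed an adjusted p under 0.05 in limma under any of the 14 alternatives, of which the filter on a mean log2 signal above 6 was added after the data were seen. Over all probe sets the count of 0 ranged from 0 to 13 with 1 array left out, highest without pmr5 replicate 2, and was 1 among probe sets with a mean above 6. The number of NET genes higher in pmr5 with no overlap ranged from 0 to 2 with 1 array left out (2 without Col-0 replicate 3), and the number lower from 0 to 1. The number lower was 1 with quantile normalization and 1 with median centring, where the tie of NET1B broke. Genotypes separate more easily by order alone when an array is left out. The share of all probe sets without overlap was taken only from the full set of arrays as deposited. These counts therefore have no share beside them and are not read as a result about the NET genes. The median log2 difference of 0.16 went from 0.11 to 0.22 on leaving out single arrays, and was 0.28 in both filters that leave 3 members (mean above the median, and mean above 6) and 0.25 with array weights. With single arrays left out NET1A went from -0.10 (without pmr5 replicate 1) to 0.41, and NET2D from -0.00074 (without pmr5 replicate 2) to 0.032. NET2D was at -0.019 with median centring, which also moves the members at the floor to -0.04 by its construction. The labels do not say whether replicate numbers pair the arrays. Deviations from the genotype means correlated at 0.12, -0.28 and 0.20 for same-numbered arrays and at -0.33 to 0.28 for the others. With 3 arrays per genotype these deviations depend on each other, so the correlations cannot decide on pairing. The replicate block left 0 probe sets and 0 NET genes past the threshold and the median at 0.16. Each NET gene had 1 probe set, so using all probe sets of a gene changes nothing and was not run.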

Other observations

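Identical values between arrays were frequent in the deposited table, also far above the shared lowest value. At least 2 of the 6 arrays held the same value in 8.20% of 8879 probe sets with a mean log2 signal above 6, and in 55.3% of 7307 dimmer ones that stayed above the shared lowest value. This was so for 5 of the 7 NET genes above the lowest value, NET1B among them. Of the dimmer probe sets 29.6% had their own lowest value on at least 2 arrays, as NET1A, NET1C and NET2D did.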
